A study of Mus musculus with 2 samples.

Results

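The 7 subunits of respiratory complex I that are encoded in mitochondrial DNA, mt-Nd1, mt-Nd2, mt-Nd3, mt-Nd4l, mt-Nd4, mt-Nd5 and mt-Nd6, were followed across the cells of mouse liver. They were taken by symbol, as 7 of the 32285 genes in the deposited tables, and all 7 were detected in both libraries. Each was measured as a share of all UMIs (unique molecular identifiers, 1 per captured RNA molecule) of the 13 genes whose symbols begin with mt-. The other 6 genes encode subunits of complex IV (mt-Co1, mt-Co2, mt-Co3), of ATP synthase (mt-Atp6, mt-Atp8) and of complex III (mt-Cytb). No mitochondrial rRNA or tRNA gene is among the rows analysed. The genes were selected on their shares of mt- UMIs in these libraries, which were known when they were picked, so the shares are a description and carry no test.

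The study set a Hep-ADKTg library against a Hep-ADKWT library, 1 of each. Hep-ADKTg mice overexpress adenosine kinase, which phosphorylates adenosine to AMP, under the albumin promoter, which is active in hepatocytes. Hep-ADKWT mice served as the controls. The livers of both came from male mice, 5 months old and fed standard chow, and were digested with collagenase to collect non-parenchymal cells for 10x v3 capture. Whether 1 mouse or several went into a library is not stated in the labels, and genotype, animal, preparation and library cannot be told apart. The labels give no strain, the mitochondrial DNA sequence of the mice was not analysed here, and a sequence difference between them cannot be told apart from a difference in RNA level.

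The Hep-ADKTg library held 96481752 UMIs in 17462 barcodes and the Hep-ADKWT library 97135016 UMIs in 15663. The mt- genes took 12562339 UMIs (13.02%) in the Hep-ADKTg library and 6575102 (6.77%) in the Hep-ADKWT library, of which 3243034 and 1555673 belonged to the 7 complex I genes. After filtering, 14449 Hep-ADKTg cells with a median of 2785 UMIs and 12482 Hep-ADKWT cells with a median of 4807 UMIs were kept. The 2 libraries had 88 barcode sequences in common. Kept cells fell into 38 clusters, made without the mt- genes, and 14 classes could be named from markers. Although the labels give non-parenchymal cells, 1790 Hep-ADKTg cells and 110 Hep-ADKWT cells were hepatocyte-like, and 10 hepatocyte markers, Alb among them, took 6.00% and 6.41% of their UMIs. The Kupffer cell-like class rests on C1qa, C1qb and C1qc, seen in 83.0% to 90.7% of its 300 cells, while the Kupffer cell genes Clec4f and Timd4 were seen in 12.7% and 6.00%. All intervals below are exact 95% intervals and cover counting error only.

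Complex I (NADH:ubiquinone oxidoreductase) takes electrons from NADH, hands them to ubiquinone and pumps protons across the inner mitochondrial membrane. Its mitochondrially encoded subunits form the core of the membrane arm, and nuclear genes encode the arm that binds NADH and the accessory subunits. ND1 holds much of the ubiquinone pocket, ND3 and ND6 lie beside it, ND4L is a small subunit in the middle of the proton path, and ND2, ND4 and ND5 are the antiporter-like pumping subunits. Mitochondrial DNA is transcribed into long RNAs that are cut, largely at the tRNAs between genes, into mRNAs. Most of these mRNAs receive short poly(A) tails. Nd4l and Nd4 remain on 1 mRNA, and Nd6 is the only protein gene transcribed from the opposite strand. Hepatocytes are rich in mitochondria.

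On the mitochondrial chromosome (GRCm38, GENCODE annotation), mt-Nd1 lies at chrM:2751-3707, mt-Nd2 at chrM:3914-4951, mt-Nd3 at chrM:9459-9806, mt-Nd4l at chrM:9877-10173, mt-Nd4 at chrM:10167-11544 and mt-Nd5 at chrM:11742-13565, all on the plus strand. The gene of mt-Nd6 lies at chrM:13552-14070 on the minus strand. These are single-exon genes without introns, and together they make up 6361 of the 11403 bases (55.8%) summed over the 13 mt- genes. The files' counts come from the 3′ ends of poly(A) RNA, so the last 60 bases, on the sense strand, are shown for mt-Nd3 and mt-Nd4l, whose shares differed in 1 direction in all classes, and for mt-Nd4, which shares an mRNA with mt-Nd4l, with runs of at least 4 A in capitals.
mt-Nd3, chrM:9747-9806, plus strand: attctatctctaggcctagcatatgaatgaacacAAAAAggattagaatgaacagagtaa
mt-Nd4l, chrM:10114-10173, plus strand: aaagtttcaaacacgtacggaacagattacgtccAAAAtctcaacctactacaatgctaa
mt-Nd4, chrM:11485-11544, plus strand: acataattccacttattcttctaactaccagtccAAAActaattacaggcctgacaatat
Of the 7 complex I genes these 3 hold a run of at least 4 A in their last 60 bases, against 7 of all 13 mt- genes. The gene of mt-Nd4 ends 1 base past its last whole codon.

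The genes of mt-Nd3 and mt-Nd4l are 70 bases apart, and that gap holds the tRNA gene mt-Tr (chrM:9808-9875). The genes of mt-Nd4l and mt-Nd4 overlap by 7 bases, shown in capitals within the junction because a 3′ end in this stretch lies in both genes. How reads in both genes were counted is not stated in the labels or file headers, and nuclear copies of mitochondrial DNA could share reads with any of the 13 genes.
mt-Nd4l and mt-Nd4 junction, chrM:10137-10203, plus strand: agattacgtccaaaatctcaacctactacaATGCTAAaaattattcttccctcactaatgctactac
The next sequence belongs to mt-Nd2, whose share was higher in barcodes of high mitochondrial content. It holds the longest run of A among the 13 genes, 8 bases that begin at base 139 of the gene, in capitals below.
mt-Nd2, chrM:4026-4085, plus strand: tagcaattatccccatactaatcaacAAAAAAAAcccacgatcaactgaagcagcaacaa
A run of at least 6 A occurs in 4 of the 7 complex I genes (mt-Nd1, mt-Nd2, mt-Nd4 and mt-Nd5) and in 5 of the 13 mt- genes (38.5%). Whether priming at such runs contributes to the counts was not tested.

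Shares were also set per length, although counts from 3′ ends need not rise with gene length. Dividing by length lowers long genes against short ones, and how poly(A) capture differs between genes was not tested. In all kept cells mt-Nd1 had 63.4 UMIs per kb per 1000 mt- UMIs in the Hep-ADKTg library and 66.5 in the Hep-ADKWT library. For mt-Nd2 the values per kb were 62.6 and 54.4, and for mt-Nd4 59.7 and 42.4. The short mt-Nd3 stood at 48.7 in the Hep-ADKTg library and 69.3 in the Hep-ADKWT library, and mt-Nd4l at 49.5 and 19.2. Within the Hep-ADKTg library mt-Nd4l was above mt-Nd3 per kb in hepatocyte-like cells (57.9 and 51.6) and in basophil or mast cell-like cells (23.3 and 22.1, from 9 mt-Nd4l UMIs). In the other Hep-ADKTg classes, and in every Hep-ADKWT class, mt-Nd3 was the higher of the pair, as in Hep-ADKTg lymphocyte-like cells with 20.4 for mt-Nd4l and 35.3 for mt-Nd3. The lowest per kb were mt-Nd5, with 6.69 in Hep-ADKTg and 4.94 in Hep-ADKWT cells, and the opposite-strand gene mt-Nd6, with 2.57 and 2.07. As plain shares in kept Hep-ADKTg cells, mt-Nd5, the longest of the 7, took 1.22%, mt-Nd4l 1.47% and mt-Nd3 1.69%. Of the other mt- genes, mt-Atp6 (268 and 277), mt-Co3 (215 and 256), mt-Co2 (188 and 213), mt-Co1 (104.9 and 95.9) and mt-Cytb (90.9 and 84.5) were above every complex I gene per kb in both libraries, and mt-Atp8 (6.75 and 7.20) was near mt-Nd5.

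Summed over the 7 genes, complex I took 25.3% of mt- UMIs in the kept Hep-ADKTg cells (1513218 UMIs) and 21.8% in the kept Hep-ADKWT cells (772172 UMIs), a log2 ratio of 0.21. This difference did not hold when cells were compared class by class. The mean over the 14 classes, each given the same weight, was 21.4% in the Hep-ADKTg library and 21.5% in the Hep-ADKWT library. Complex I had a higher share in the Hep-ADKTg library in 5 classes and a lower share in 9. Hepatocyte-like cells, with a high complex I share in both libraries, held 4480378 of the 5978439 mt- UMIs of kept Hep-ADKTg cells and 500223 of the 3535003 of kept Hep-ADKWT cells.

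Cell classes ranged more widely than libraries. Hepatocyte-like cells had a complex I share of 26.4% (26.4–26.5%) in the Hep-ADKTg library and 26.3% (26.2–26.4%) in the Hep-ADKWT library. LSEC-like cells, the sinusoidal endothelium that lines the liver's capillaries, stood at 24.9% (24.74–25.04%) in the Hep-ADKTg library and 26.7% (26.5–26.8%) in the Hep-ADKWT library. Vascular endothelial cell-like cells followed at 23.4% and 25.7%, and fibroblast or mesothelial cell-like cells at 22.9% and 23.9%. These 4 classes were the highest 4 in the Hep-ADKWT library, and in the Hep-ADKTg library neutrophil-like cells came between them.

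Most lymphoid and myeloid classes had lower complex I shares, but Hep-ADKTg neutrophil-like cells stood at 23.7% (22.7–24.7%), against 19.66% (19.01–20.33%) in the Hep-ADKWT library. Lymphocyte-like cells had 20.4% (20.3–20.5%) in the Hep-ADKTg library and 20.6% (20.5–20.7%) in the Hep-ADKWT library, and B cell-like cells 20.1% (19.9–20.2%) and 20.2% (20.1–20.3%). The share was 20.96% and 20.69% in Kupffer cell-like cells and 20.04% and 20.69% in plasmacytoid dendritic cell-like (pDC-like) cells. Plasma cell-like cells had 19.2% in the Hep-ADKTg library and 18.7% in the Hep-ADKWT library, and monocyte-like cells had 18.6% in each. The lowest share in both libraries was that of basophil or mast cell-like cells, 17.0% (15.01–19.17%, 15 cells) in the Hep-ADKTg library and 18.4% (17.6–19.3%, 60 cells) in the Hep-ADKWT library. Cholangiocyte-like cells, the bile duct epithelium, stood near the lymphocytes at 19.99% and 21.36%. In the Hep-ADKTg order, the neighbours from neutrophil-like to vascular endothelial, fibroblast and erythroid cell-like cells had intervals that overlapped from neighbour to neighbour. In the Hep-ADKWT order the same was true of the run from cholangiocyte-like over Kupffer cell-like and pDC-like to lymphocyte-like cells. In both libraries the intervals of plasma cell-like and monocyte-like cells and of monocyte-like and basophil or mast cell-like cells overlapped. Across the 14 classes Pearson's r between the shares in the 2 libraries was 0.80. The classes within a library share its preparation and depth.

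**Figure D1:**
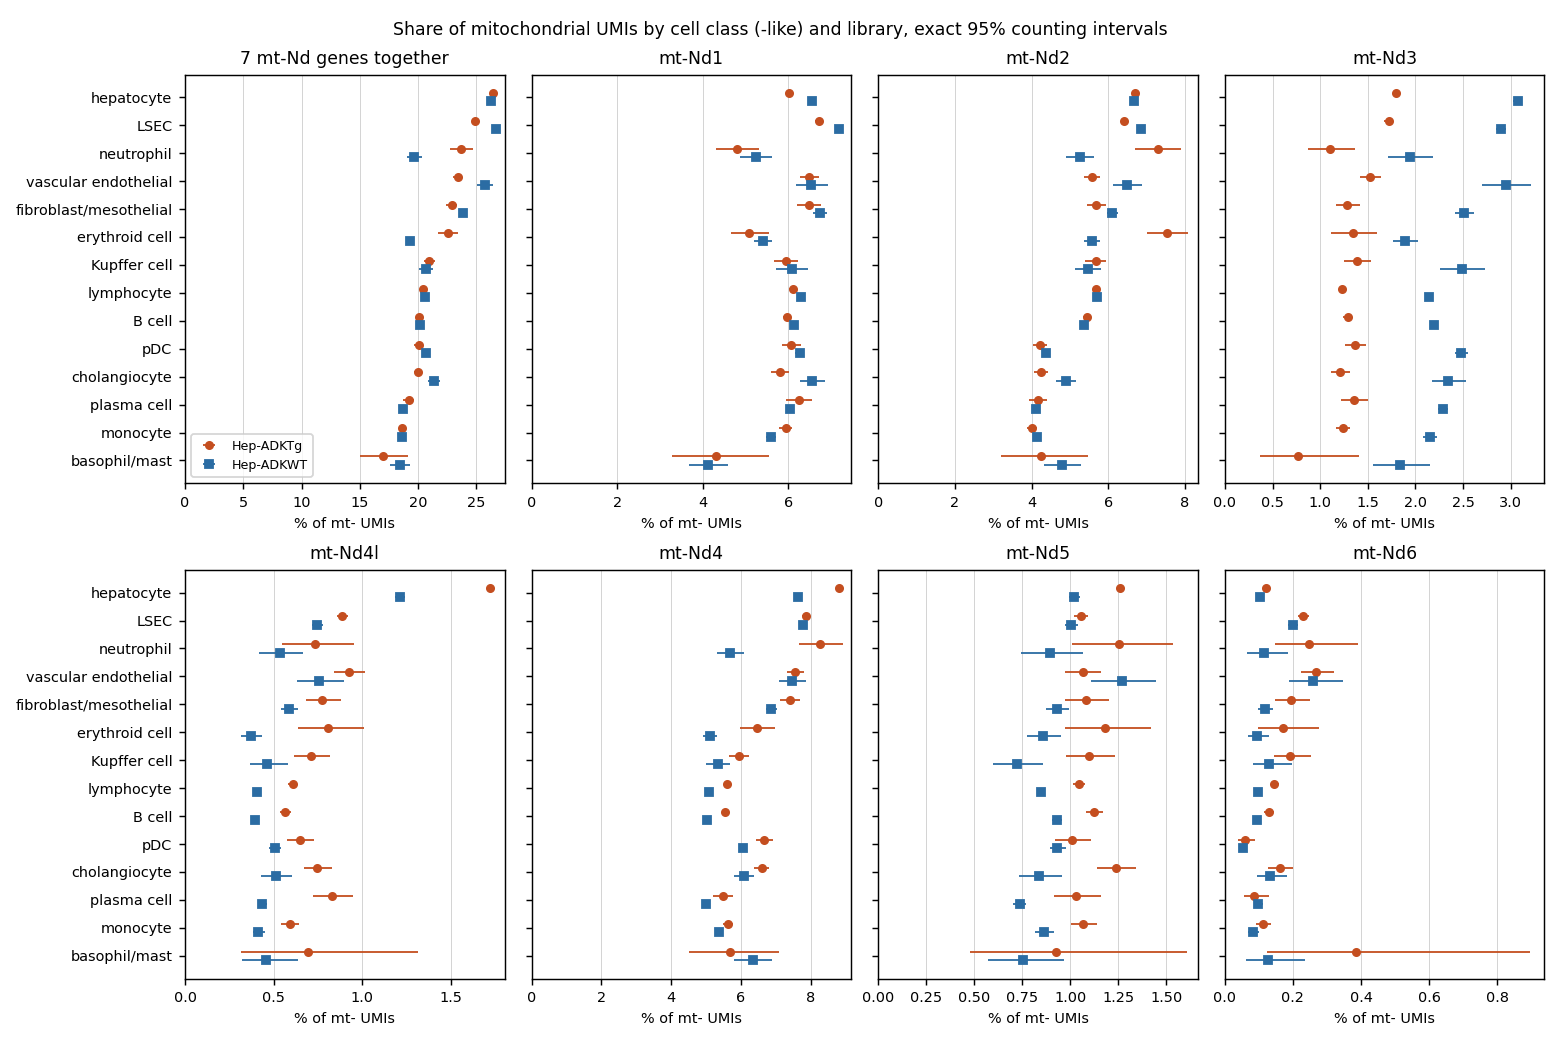
Share of mt- UMIs (percent, x axis) of the 7 complex I genes together and of each gene in 14 cell classes (rows), with exact 95% counting intervals. Orange circles are the Hep-ADKTg library and blue squares the Hep-ADKWT library. The circles of mt-Nd3 all lie at or below 1.79% and its squares at or above 1.84%.

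Of the 13 mt- genes, mt-Nd3 was the only one whose ranges over the 14 classes did not overlap between libraries. It encodes the subunit beside the ubiquinone pocket. Its share was 0.770% to 1.79% over the 14 classes in the Hep-ADKTg library (median 1.31%) and 1.84% to 3.08% in the Hep-ADKWT library (median 2.32%). The share was lower in the Hep-ADKTg library in all 14 classes and in all 36 clusters with cells of both libraries. Classes and clusters come from the same 2 libraries, so these counts are not independent of one another. In hepatocyte-like cells mt-Nd3 took 1.79% of mt- UMIs in the Hep-ADKTg library (80412 UMIs) and 3.08% in the Hep-ADKWT library (15387 UMIs), a log2 ratio of -0.78 (-0.80 to -0.75). Among hepatocyte-like cells with at most 10% mt- UMIs, the log2 ratio was -0.075 (-0.39 to 0.26), from 905 Hep-ADKTg cells and 31 Hep-ADKWT cells with 80 mt-Nd3 UMIs. In LSEC-like cells mt-Nd3 took 1.72% and 2.90% (log2 ratio -0.75), in lymphocyte-like cells 1.23% and 2.15% (-0.81) and in B cell-like cells 1.29% and 2.20% (-0.77). Its median log2 ratio over the classes was -0.81.

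On the opposite side stood mt-Nd4l, the next protein gene along the chromosome. Its share was 0.564% to 1.72% over the classes in the Hep-ADKTg library (median 0.738%) and 0.372% to 1.21% in the Hep-ADKWT library (median 0.485%). The share was higher in the Hep-ADKTg library in all 14 classes, with an interval above 0 on the log2 scale in 12, and in 32 of the 36 clusters. Unlike those of mt-Nd3, the ranges of the 2 libraries overlap. Both libraries had their highest mt-Nd4l share in hepatocyte-like cells. There it was 1.72% in the Hep-ADKTg library and 1.21% in the Hep-ADKWT library, a log2 ratio of 0.50 (0.47 to 0.54). The ratio was 0.25 in LSEC-like, 0.58 in lymphocyte-like and 0.53 in B cell-like cells, and the median over the 14 classes was 0.52.

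Taken against each other, mt-Nd4l UMIs per 100 mt-Nd3 UMIs ranged from 43.8 to 95.7 over the classes in the Hep-ADKTg library and from 17.8 to 39.4 in the Hep-ADKWT library. Both ranges ran between B cell-like cells at the low end and hepatocyte-like cells at the high end, and they do not overlap. Against mt-Nd4, with which it shares an mRNA, mt-Nd4l had 8.82 to 19.5 UMIs per 100 in the Hep-ADKTg library and 7.24 to 15.9 in the Hep-ADKWT library, and these ranges overlap. In single hepatocyte-like cells with at least 100 mt- UMIs, mt-Nd4l outnumbered mt-Nd3 in 39.3% of 1100 Hep-ADKTg cells and in 0% of 84 Hep-ADKWT cells. In lymphocyte-like cells the same was seen in 17.7% of 1817 Hep-ADKTg cells and 3.39% of 4222 Hep-ADKWT cells. Depth per cell differs between the libraries and moves with these percentages of cells, and its part was not tested.

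The pumping subunits mt-Nd4 and mt-Nd5 and the pocket subunit mt-Nd6 had higher shares in the Hep-ADKTg library in 13 of 14 classes each. Their median log2 ratios were 0.13, 0.30 and 0.44. For mt-Nd4 the exception was basophil or mast cell-like cells (-0.15, -0.53 to 0.20), for mt-Nd5 vascular endothelial cell-like cells (-0.25, -0.49 to -0.019) and for mt-Nd6 plasma cell-like cells (-0.18, -0.87 to 0.43). In hepatocyte-like cells mt-Nd4 took 8.81% in the Hep-ADKTg library and 7.64% in the Hep-ADKWT library, and mt-Nd5 1.26% and 1.02% (log2 ratio 0.30). With at most 10% mt- UMIs, mt-Nd5 took 1.21% in the Hep-ADKTg library and 0.534% in the Hep-ADKWT library, where it had 23 UMIs, a log2 ratio of 1.18 (0.59 to 1.84). The share of mt-Nd6 was low throughout, at 0.0603% to 0.385% in the Hep-ADKTg classes and 0.0519% to 0.260% in the Hep-ADKWT classes. Its intervals lay above 0 in 7 classes. In hepatocyte-like cells its log2 ratio was 0.24 (0.11 to 0.37) from summed UMIs and -0.47 as a mean over cells.

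Neither mt-Nd1 nor mt-Nd2 differed in 1 direction across the classes. The ubiquinone-pocket gene mt-Nd1 was lower in the Hep-ADKTg library in 11 of 14 classes, with a median log2 ratio of -0.047 and a range of -0.18 to 0.086. The pump gene mt-Nd2 was higher in 6 and lower in 8 classes. Its largest ratios were in neutrophil-like cells, where it took 7.29% in the Hep-ADKTg library and 5.25% in the Hep-ADKWT library (log2 ratio 0.47), and in erythroid cell-like cells, with 7.54% and 5.57% (0.44). These 2 classes also had the summed complex I shares that were furthest above those of the Hep-ADKWT library, 23.7% and 19.7% in neutrophil-like cells and 22.6% and 19.3% in erythroid cell-like cells. Of the 6 other mt- genes, 5 had median log2 ratios between -0.032 and 0.029, and mt-Atp8, with shares under 0.4%, had 0.18.

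**Figure D2:**
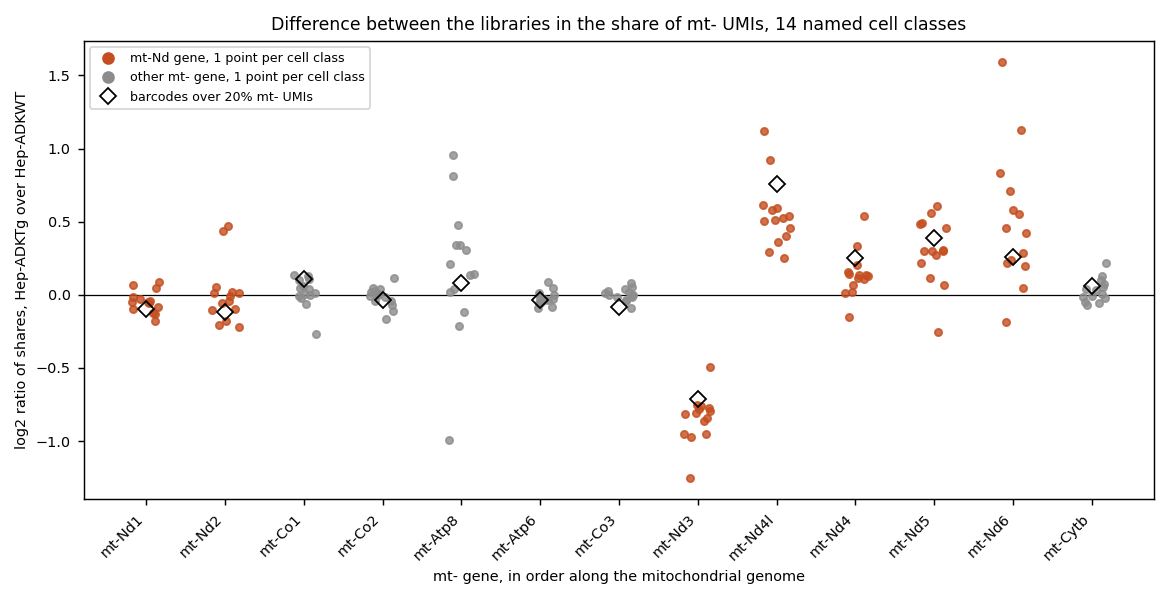
Log2 ratio of the share of mt- UMIs, Hep-ADKTg over Hep-ADKWT (y axis), for each of the 13 mt- genes in their order along the chromosome (x axis). Each dot is 1 of 14 cell classes, orange for complex I genes and grey for the others, and the open diamond is the ratio in barcodes over 20% mt- UMIs. All dots of mt-Nd3 lie below 0 and all dots of mt-Nd4l above it.

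Hepatocyte transcripts outside hepatocytes moved with the libraries too. The 10 hepatocyte markers summed to between 0.193% and 1.32% of UMIs in the 13 other classes of the Hep-ADKTg library (median 0.732%) and to between 0.0490% and 0.834% in those of the Hep-ADKWT library (median 0.135%), and none of the 10 was at 0 in either. In neutrophil-like cells the sum was 1.32% in the Hep-ADKTg library and 0.185% in the Hep-ADKWT library, and in erythroid cell-like cells 0.616% and 0.120%. Their part in the member shares was not tested.

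Most clusters of a class were dominated by 1 library. Hepatocyte-like cluster 10 held 823 Hep-ADKTg and 70 Hep-ADKWT cells, and its complex I share was 26.2% in the Hep-ADKTg library and 26.3% in the Hep-ADKWT library. In hepatocyte-like cluster 12, with 743 and 27 cells, the share was 25.5% and 23.0%. LSEC-like cluster 3 held 1436 Hep-ADKTg and 100 Hep-ADKWT cells, with complex I at 25.1% in both. LSEC-like cluster 8 held 8 Hep-ADKTg cells, at 25.1%, and 1010 Hep-ADKWT cells, at 27.0%. The lower LSEC-like share in the Hep-ADKTg library was thus not seen within cluster 3, where mt-Nd3 was still 1.79% against 2.70%. Clusters 0 and 1 stayed unnamed, were led by the liver genes Rgn, Akr1c6 and Gsta3, and had median depths of 788 and 1846 UMIs. Cluster 0 (3525 Hep-ADKTg and 212 Hep-ADKWT cells) had complex I shares of 26.3% and 23.3%, and cluster 1 (811 and 1222 cells) 27.0% and 24.7%. Cluster 0 had the smallest mt-Nd3 difference of the 36 clusters, 1.53% in the Hep-ADKTg library and 1.66% in the Hep-ADKWT library.

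In CPM, UMIs of a gene scaled to a common total of all UMIs, the level of mt-Nd3 also differed. It was 2372 CPM in hepatocyte-like Hep-ADKTg cells and 4683 CPM in Hep-ADKWT cells (log2 ratio -0.98, -1.01 to -0.96). LSEC-like cells had 834 and 1408 CPM (-0.76), lymphocyte-like cells 412 and 898 CPM (-1.12) and B cell-like cells 547 and 1109 CPM (-1.02). Of the 7 genes, mt-Nd3 alone passed a 1.5-fold difference in these 4 classes, in each case lower in Hep-ADKTg cells. That fold was passed downward by 3.33% of the genes tested in hepatocyte-like, 3.65% in LSEC-like, 2.85% in lymphocyte-like and 3.59% in B cell-like cells, and upward by 3.22%, 5.32%, 5.93% and 5.62%. Since the share was known when the genes were chosen, nothing is read from these counts. The level of mt-Nd4l was higher in Hep-ADKTg cells of all 4 classes, by 0.30, 0.25, 0.26 and 0.28 on the log2 scale. Over the 10 named classes with at least 75 cells in each library, mt-Nd3 was lower in CPM in every one, as were 7.87% of 1829 genes, and mt-Nd4l higher in every one, as were 7.11%. No other complex I gene had 1 direction in all 10. Over all kept cells 6 of the 7 genes were past 1.5-fold higher in the Hep-ADKTg library, where 16.3% of genes were higher and 32.6% lower. That library also had the excess of hepatocyte-like cells described above, and its part in that count was not tested.

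The nuclear-encoded partners did not follow mt-Nd3. All 37 nuclear complex I subunits in the list were found, and 35 of 37 had higher CPM in Hep-ADKTg hepatocyte-like cells, with a median log2 ratio of 0.21, beside -0.012 over all genes tested. In LSEC-like cells 35 of 37 were higher (median 0.28, beside -0.13), in lymphocyte-like cells 34 (0.11, beside -0.10) and in B cell-like cells 33 (0.18, beside -0.15). The difference passed 1.5-fold for 1 of them, Ndufa13 in LSEC-like cells, an accessory subunit with 224 CPM in Hep-ADKTg and 143 CPM in Hep-ADKWT cells (log2 ratio 0.65). In that class 5.32% of all genes tested passed it upward. The highest in hepatocyte-like cells were Ndufb11 (345 and 231 CPM, log2 ratio 0.58) of the membrane arm and Ndufv3 (431 and 303 CPM, 0.51) of the NADH-binding module. The lowest there was the iron-sulfur core subunit Ndufs1 (50.6 and 52.7 CPM, -0.058), whose interval includes 0. In LSEC-like cells the other end was held by Ndufa8 (171 and 222 CPM, -0.38) and Ndufs1 (47.7 and 56.6 CPM, -0.24), and Ndufa11 (133 and 92.0 CPM, 0.53) was second highest. In lymphocyte-like cells Ndufs6 (165 and 134 CPM, 0.30) and Ndufab1 (118 and 96.0 CPM, 0.30) were highest and Ndufs1 (29.0 and 32.9 CPM, -0.18) and Ndufa9 (53.6 and 56.8 CPM, -0.083) lowest. In B cell-like cells Ndufv1 (51.7 and 35.1 CPM, 0.56), which binds NADH, and Ndufa8 (96.6 and 71.2 CPM, 0.44) were highest, and Ndufs8 (79.6 and 88.5 CPM, -0.15) and Ndufa3 (215 and 227 CPM, -0.080) lowest. The intervals of the lowest genes in lymphocyte-like and B cell-like cells all include 0.

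The summed level of the 7 mitochondrial genes was 34933 CPM in Hep-ADKTg and 40004 CPM in Hep-ADKWT hepatocyte-like cells, or 3.50 and 4.77 UMIs per UMI of the 37 nuclear subunits. That quotient was lower in the Hep-ADKTg library in 13 of 14 classes. In LSEC-like cells it was 2.02 and 2.62, and in lymphocyte-like cells 1.14 and 1.55. Neutrophil-like cells were the exception, with 0.695 in the Hep-ADKTg library and 0.668 in the Hep-ADKWT library. The other 6 mt- genes summed to 97222.5 CPM in Hep-ADKTg hepatocyte-like cells, against 112251, while the nuclear subunits were higher there, 9983 against 8380. For lymphocyte-like cells these sums were 26669 against 33188 and 6002 against 5542. The lower quotient was thus not particular to complex I in these classes. Within the LSEC-like class both sums were higher in the Hep-ADKTg library, 36436 against 35636 and 5962 against 4942. The nuclear sum was higher by the larger proportion, so the other mt- genes per nuclear UMI were lower in the Hep-ADKTg library there too. Erythroid cell-like cells had the lowest summed complex I level, 1771 CPM in the Hep-ADKTg library and 2123 CPM in the Hep-ADKWT library.

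**Figure D3:**
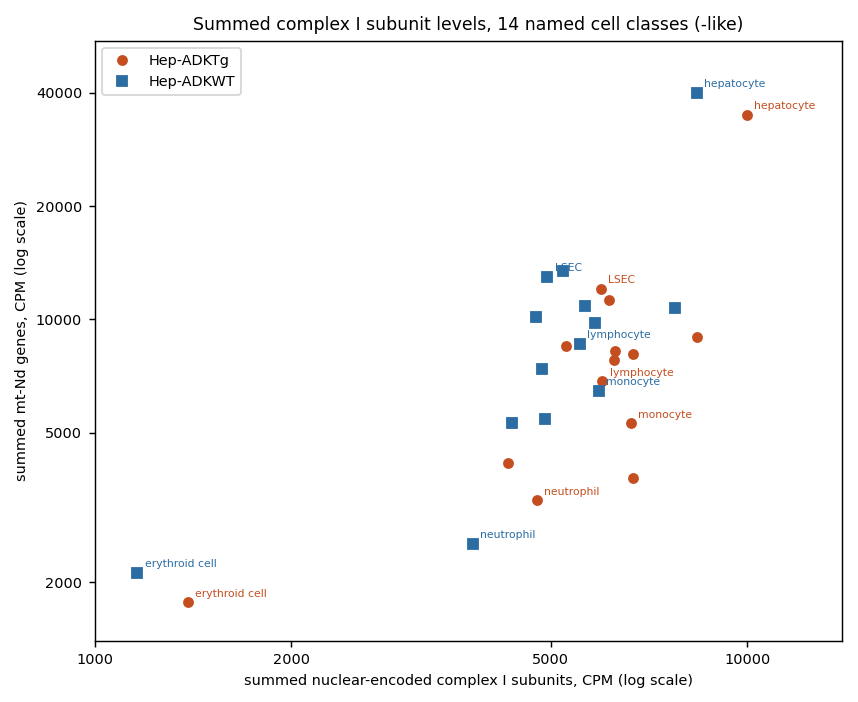
Summed CPM of the 7 mitochondrial complex I genes (y axis, log scale) against the summed CPM of 37 nuclear-encoded subunits (x axis, log scale), 1 point per cell class and library, orange circles for Hep-ADKTg and blue squares for Hep-ADKWT. Hepatocyte-like cells are at the top right, with 34933 and 40004 CPM on the y axis, and erythroid cell-like cells at the bottom left, with 1771 and 2123.

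Among the 15 complex I assembly factors, 10 had higher CPM in Hep-ADKTg hepatocyte-like cells (median log2 ratio 0.17), 9 in LSEC-like (0.067), 8 in lymphocyte-like (0.0063) and 9 in B cell-like cells (0.015). The medians over all genes tested were -0.012, -0.13, -0.10 and -0.15 in the same order. Past 1.5-fold were 2 of 13 tested, higher, in hepatocyte-like cells (3.22% of all genes were), 1 of 14, higher, in lymphocyte-like cells (5.93%) and 1 of 7, lower, in LSEC-like cells (3.65%). Ndufaf2, a late assembly factor, was among the 2 highest in all 4 classes. It had 34.5 CPM in Hep-ADKTg and 22.2 CPM in Hep-ADKWT hepatocyte-like cells (0.63), 33.8 and 24.0 CPM in LSEC-like cells, 25.7 and 21.9 CPM in lymphocyte-like cells (0.23) and 22.2 and 15.3 CPM in B cell-like cells (0.53). The other high ones were Nubpl (0.60, interval -0.070 to 1.35) in hepatocyte-like, Ndufaf8 (0.23) in LSEC-like, Ndufaf6 (0.68) in lymphocyte-like and Ndufaf1 (0.30, interval -0.12 to 0.71) in B cell-like cells. The lowest were Acad9 (-0.25) and Foxred1 (-0.18) in hepatocyte-like, Acad9 (13.6 and 20.7 CPM, -0.60) and Ndufaf3 (-0.26) in LSEC-like, Ndufaf5 (-0.55) and Tmem186 (-0.50) in lymphocyte-like, and Ecsit (-0.28) and Ndufaf3 (-0.21) in B cell-like cells. Among these lowest, intervals include 0 for Acad9 and Foxred1 in hepatocyte-like cells, for Ecsit, and for Ndufaf3 in both classes.

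Of 23 genes of mitochondrial transcription and RNA maturation, 22 were found in the tables. Higher CPM in Hep-ADKTg cells was seen for 15 in hepatocyte-like (median log2 ratio 0.062), 10 in LSEC-like (-0.073), 11 in lymphocyte-like (0.0027) and 8 in B cell-like cells (-0.11). Over all genes tested the medians were -0.012, -0.13, -0.10 and -0.15 in the same order. In hepatocyte-like cells 1 of 19 tested was past 1.5-fold higher and 1 lower, as were 3.22% and 3.33% of all genes. Mtpap, the mitochondrial poly(A) polymerase, was among the 2 lowest in 3 classes. Its level was 9.76 CPM in Hep-ADKTg and 15.5 CPM in Hep-ADKWT hepatocyte-like cells (-0.67, -1.10 to -0.21), where the Hep-ADKWT value rests on 51 UMIs. In lymphocyte-like cells it was 19.2 and 24.4 CPM (-0.35, -0.57 to -0.13), and in B cell-like cells 20.7 and 25.3 CPM (-0.30, -0.63 to 0.034). Lrpprc, which stabilises mitochondrial mRNAs, was among the 2 highest in LSEC-like (40.6 and 32.9 CPM, 0.31), lymphocyte-like (0.25) and B cell-like cells (0.23, -0.069 to 0.53). The other high ones were Tefm (0.59) and Pnpt1 (0.44) in hepatocyte-like, Slirp (0.18) in LSEC-like, Fastkd1 (0.32) in lymphocyte-like and Grsf1 (0.24) in B cell-like cells, all with intervals that include 0. The other low ones were Polrmt (-0.56), the mitochondrial RNA polymerase, in hepatocyte-like, Tfb2m (-0.32) and Fastk (-0.30) in LSEC-like, Mterf3 (-0.21) in lymphocyte-like and Tfam (-0.26), which packages mitochondrial DNA, in B cell-like cells. Of these, the intervals of Polrmt, Fastk and Mterf3 include 0, and Polrmt had 31 Hep-ADKWT UMIs.

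The genes outside mitochondrial DNA whose levels most resembled the summed complex I level were sought over 23 class-by-library sums of at least 75 cells, among 2984 genes. They were Atp5g3 of ATP synthase (Pearson's r 0.92), Cyb5b, a cytochrome b5 of the mitochondrial outer membrane (0.92), Sdha, the catalytic subunit of complex II (0.91), Polr2l, a subunit of nuclear RNA polymerases (0.91), and Sfxn1, a mitochondrial serine carrier (0.90). Without the hepatocyte-like and erythroid cell-like sums, which lie at the 2 ends, r over the remaining 19 was 0.75 for Atp5g3, 0.70 for Cyb5b, 0.73 for Sdha, 0.68 for Polr2l and 0.78 for Sfxn1. The other 6 mt- genes had r of 0.953 to 0.990, and 34 nuclear complex I subunits a median r of 0.74. Sums of 1 library share its preparation and its depth.

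Barcodes with more than 20% mt- UMIs, which such a filter removes, were examined next. There were 2604 in the Hep-ADKTg library (14.9% of barcodes) and 1418 in the Hep-ADKWT library (9.05%). They held 51.5% of all mt- UMIs of the Hep-ADKTg library and 42.9% of those of the Hep-ADKWT library, at median depths of 1291 and 985 UMIs. By the nearest class profile, 2529 (97.1%) of the Hep-ADKTg barcodes and 646 (45.6%) of the Hep-ADKWT barcodes were closest to hepatocyte-like cells. In the Hep-ADKWT library 589 of them had under 200 genes, so the nearest class is less certain there than in kept cells.

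Complex I took 26.3% of mt- UMIs in barcodes over 20% and 25.3% in kept cells of the Hep-ADKTg library, a log2 ratio of 0.056. In the Hep-ADKWT library it took 26.1% and 21.8%, a log2 ratio of 0.26. Among barcodes nearest to hepatocyte-like cells, complex I was 26.3% over 20% and 26.4% in kept cells of the Hep-ADKTg library, and 26.3% in both sets of the Hep-ADKWT library. Barcodes over 20% nearest to other classes had 25.1%, against 21.5% in kept cells, in the Hep-ADKTg library and 25.4%, against 21.1%, in the Hep-ADKWT library. The mix of classes differs between these sets. In the Hep-ADKTg library 43 of the 75 barcodes were nearest to LSECs, against 2401 of the 7923 kept cells. For LSECs alone the Hep-ADKTg share over 20% was 25.3%, against 24.9% in kept cells (log2 ratio 0.021, -0.0014 to 0.044). In the Hep-ADKWT library the share over 20% was 25.6% for barcodes nearest to lymphocytes, against 20.6% in kept cells. For those nearest to B cells it was 24.9%, against 20.2%, for plasma cells 24.98%, against 18.74%, and for erythroid cells 25.3%, against 19.3%. The endothelial and stromal classes differed less, with 25.7%, against 26.7%, for LSECs and 24.6%, against 23.9%, for fibroblast or mesothelial cells. For Kupffer cells it was 26.3%, against 20.7%. Over 20%, the 8 Hep-ADKWT classes with at least 20 such barcodes lay between 24.6% and 26.3%. Their kept cells lay between 18.7% and 26.7%. Of the classes with fewer barcodes, pDCs (21.7%, against 20.7% in kept cells) and monocytes (26.7%, against 18.6%) lay outside 24.6% to 26.3%. Vascular endothelial cells, with 25.3%, lay within it.

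**Figure D4:**
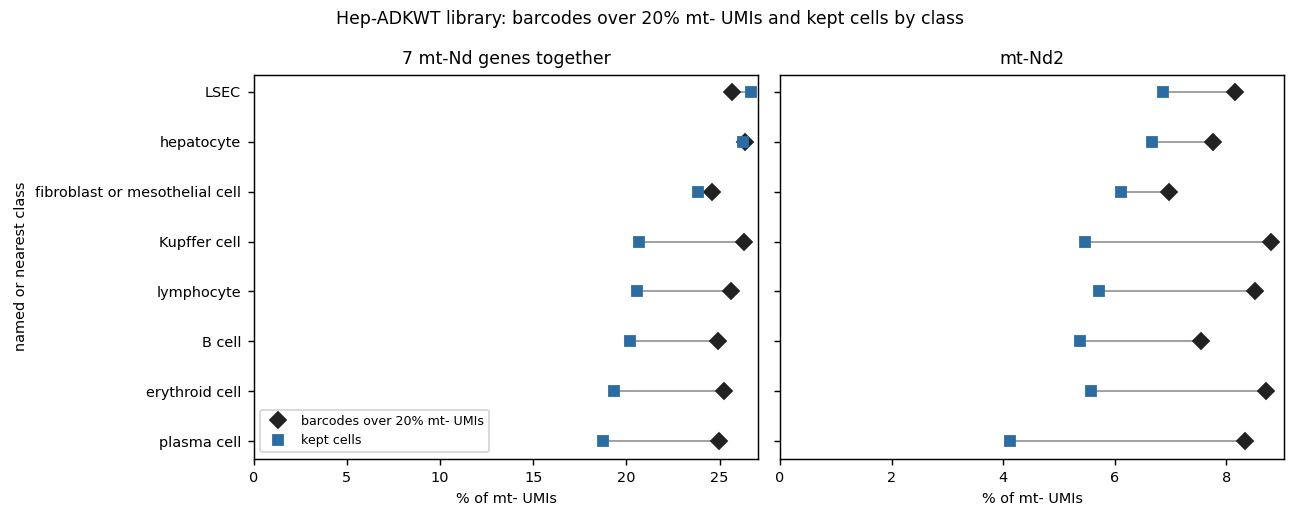
Share of mt- UMIs (percent, x axis) of the 7 complex I genes together and of mt-Nd2 in the Hep-ADKWT library, by class (rows). Rows are the 8 classes with at least 20 barcodes over 20% mt- UMIs. Black diamonds are barcodes over 20% mt- UMIs, placed by nearest class, and blue squares are kept cells. The diamonds of the summed share lie between 24.6% and 26.3%, and those of mt-Nd2 lie to the right of the squares in all 8 classes.

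By gene, mt-Nd2 had a higher share over 20% in both libraries, in hepatocyte-nearest and in other barcodes. It took 7.24% over 20% and 6.50% in kept cells of the Hep-ADKTg library, and 7.87% and 5.65% in the Hep-ADKWT library. Within barcodes nearest to hepatocyte-like cells it was 7.24%, against 6.70%, in the Hep-ADKTg library and 7.76%, against 6.66%, in the Hep-ADKWT library. In the Hep-ADKWT plasma cell class it was 8.34%, against 4.11%. The share of mt-Nd1 was lower over 20% in both libraries, 5.67%, against 6.07%, in Hep-ADKTg and 6.06%, against 6.36%, in Hep-ADKWT. For mt-Nd4l the share was 1.69%, against 1.47%, in the Hep-ADKTg library and 1.001%, against 0.570%, in the Hep-ADKWT library, but within hepatocyte-nearest barcodes it was 1.70%, against 1.72%, and 1.08%, against 1.21%. In CPM all 7 genes were past 1.5-fold higher over 20%, where 4.13% of all genes were higher and 65.3% lower in the Hep-ADKTg library and 9.87% and 76.2% in the Hep-ADKWT library. The threshold itself fixes that direction for mt- genes, and nothing is read from it.

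The contrast of mt-Nd3 and mt-Nd4l between the libraries was present over 20% as well. There mt-Nd3 took 1.81% in the Hep-ADKTg library and 2.96% in the Hep-ADKWT library (log2 ratio -0.71), and mt-Nd4l 1.69% and 1.001% (0.76). Barcodes nearest to classes other than hepatocytes gave log2 ratios of -0.56 and 0.78. In single barcodes over 20%, mt-Nd4l outnumbered mt-Nd3 in 29.3% of 2604 Hep-ADKTg barcodes and 1.90% of 1418 Hep-ADKWT barcodes. Summed complex I differed little, 26.3% and 26.1%.

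Along the whole range of mitochondrial content, the summed share was lowest in the middle in the Hep-ADKTg library, with 24.9% in barcodes of at most 1% mt- UMIs, 21.1% in those of 2 to 5% and 26.8% in those of 20 to 40%. In the Hep-ADKWT library it was 16.7%, 20.6% and 26.2% in the same bins. On the 2 sides of the 20% limit, barcodes of 20 to 40% and of 10 to 20% had 26.8% and 26.5% in the Hep-ADKTg library and 26.2% and 25.6% in the Hep-ADKWT library. Above 80% the share was 25.3% and 25.9%. In the Hep-ADKWT library mt-Nd2 took 6.90% at 20 to 40%, 7.41% at 40 to 60%, 8.12% at 60 to 80% and 8.49% above 80%, while mt-Nd1 took 6.34%, 6.20%, 6.13% and 5.83%. In the Hep-ADKTg library mt-Nd1 took 6.02%, 5.59%, 5.33% and 4.91% over these bins, and mt-Nd2 6.99%, 7.57%, 7.33% and 7.58%. The highest mt-Nd2 share of any Hep-ADKTg bin was 8.11%, in barcodes of at most 1%, where the Hep-ADKWT library had 4.86%. The share of mt-Nd3 was lower in the Hep-ADKTg library in every bin above 1%. Below 1% it was 1.68% in the Hep-ADKTg library and 1.34% in the Hep-ADKWT library. Cell types are spread unevenly over the bins, and the median mt- content was 0.421% in cluster 1 and 0.377% in the erythroid cell-like cluster 13.

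**Figure D5:**
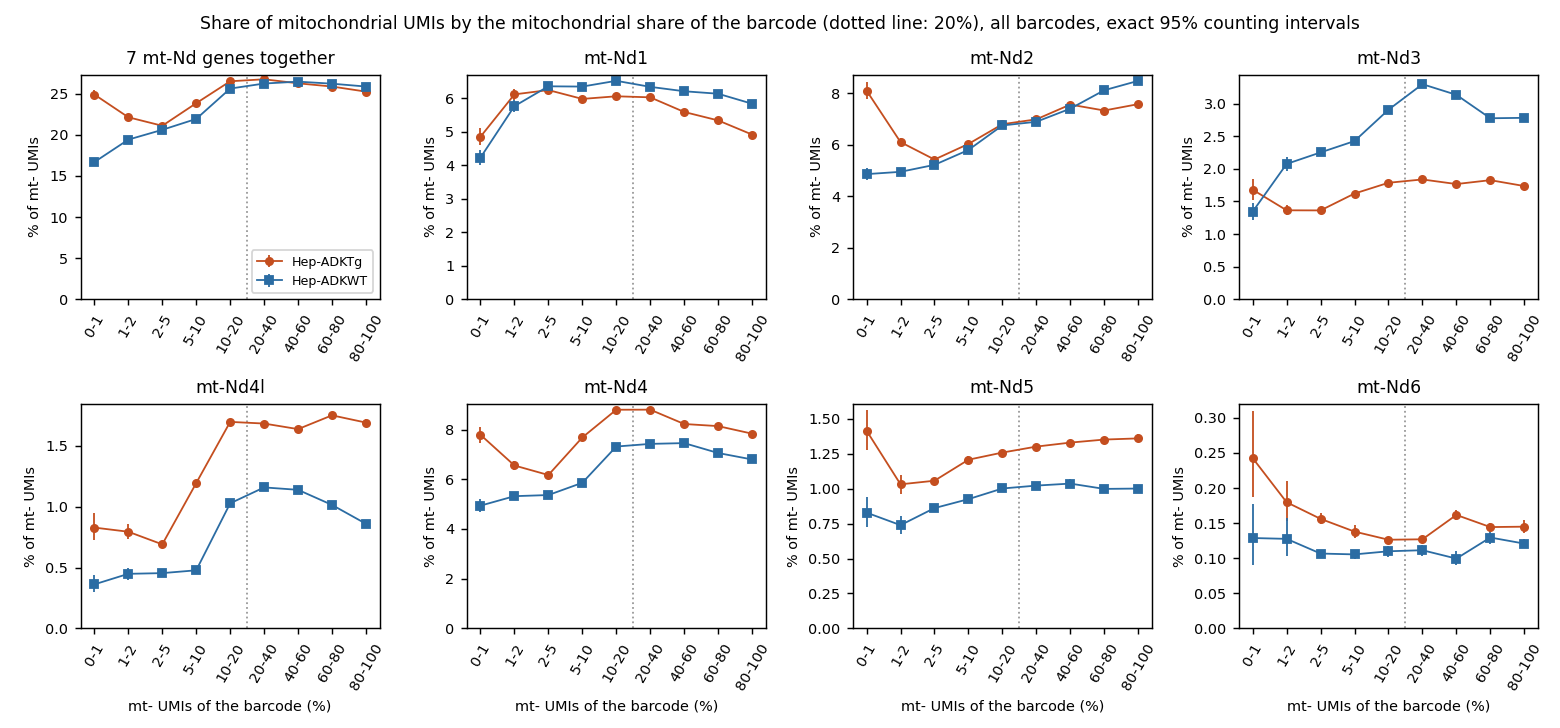
Share of mt- UMIs (percent, y axis) of the 7 complex I genes together and of each gene in barcodes binned by their own percentage of mt- UMIs (x axis), with exact 95% counting intervals. Orange circles are the Hep-ADKTg library, blue squares the Hep-ADKWT library, and the dotted line marks 20%. The squares of mt-Nd2 go up to 8.49% in the last bin, and mt-Nd4l is higher in the Hep-ADKTg library in every bin.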

How the data were processed

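Liver non-parenchymal cells of 2 libraries were analysed. The authors deposited whole-number UMI counts per gene and barcode. Per the submitters' processing notes, Cell Ranger 6.1.2, Seurat 4.0.2, R 4.1.0 and GRCm38/mm10 were used, while the file headers name an earlier Cell Ranger release. The series text names SoupX and Harmony. Because the deposited counts are whole numbers, they were treated as uncorrected for ambient RNA. The annotation behind the counts is not stated, and coordinates and sequences come from GENCODE vM21 (GRCm38).

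Kept barcodes had 500 UMIs or more, 200 genes or more and no more than 20% mt- UMIs. Scrublet's automatic threshold marked 0 cells and so had not worked. A maximum score of 0.2 was used in its place and removed 404 Hep-ADKTg cells (2.72%) and 479 Hep-ADKWT cells (3.70%). Clusters were made from 2000 variable genes without mt- genes, 30 principal components, 15 neighbours and Leiden resolution 1.0, and named from fixed markers. They can differ from the study's own annotation. Other barcodes took the class whose mean profile had the highest Pearson's r, which gave the cluster name for 94.6% of 20522 named kept cells. The software was scanpy 1.11.5 with leidenalg 0.10.2 and scikit-learn 1.9.0, scipy 1.17.1, matplotlib 3.10.9, pandas 2.3.3 and numpy 2.4.6 in Python 3.11.15.

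UMIs were summed per class and library. Each genotype has 1 library, so no test was run. Shares carry exact Clopper-Pearson 95% intervals and ratios exact conditional binomial intervals. The ratio intervals were run on simulated counts with counting error only, which cannot show how they cover spread between cells or libraries. CPM ratios were called past 1.5-fold among genes with at least 200 UMIs. The genes named are the 7 members, the other mt- genes, the 2 highest and 2 lowest of each list with at least 200 UMIs, and the 5 genes most like the members by r of log2(CPM + 10) among genes with a mean of at least 50 CPM. List genes entered with at least 50 UMIs. A gene that this rule names is not reported here. Members, lists and rules were chosen with earlier results of these data known. No protein sequences were used here.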

Additional observations from a re-analysis of the deposited data

Results flagged for a closer look

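In several shares the Hep-ADKTg library was higher in some cell classes and lower in others. Values are log2 ratios of the share of mt- UMIs, Hep-ADKTg over Hep-ADKWT, and the differences between classes were not tested, since each class has 1 library per group. The summed complex I share had a ratio of 0.27 in neutrophil-like cells and -0.14 in vascular endothelial cell-like cells. For mt-Nd1 the ratio was 0.086 in monocyte-like cells and -0.18 in cholangiocyte-like cells. For mt-Nd2 it was 0.47 in neutrophil-like cells and -0.22 in vascular endothelial cell-like cells. For mt-Nd5 it was 0.61 in Kupffer cell-like cells and -0.25 in vascular endothelial cell-like cells. The vascular endothelial cell-like class held 270 Hep-ADKTg and 64 Hep-ADKWT cells, and the cholangiocyte-like class 99 and 35. Hepatocyte markers took 1.32% of UMIs in Hep-ADKTg and 0.185% in Hep-ADKWT neutrophil-like cells, and their part in these ratios was not tested.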

How the results depend on the processing

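Values are log2 ratios of the summed complex I share of mt- UMIs. Under 57 combinations of comparison and alternative the summed share stayed within its own counting interval, under 19 it moved out of it and under 1 it reversed. For all kept cells (0.21), Hep-ADKTg over Hep-ADKWT, the ratio was 0.091 with at most 10% mt- UMIs, 0.11 as a mean over cells, 0.32 over complex IV UMIs and 0.20 without cells over 5% hepatocyte marker UMIs. It was -0.0032 as a mean over named classes, an alternative chosen after seeing the data, as were those without shared barcodes, with the deep clusters alone and with at least 200 genes in both sets. That mean weights the named classes equally and leaves out the unnamed clusters, but keeps the mix of clusters within each class. For hepatocyte-like cells (0.0087) it was 0.13 with at most 10% mt- UMIs and 0.036 over complex IV UMIs, and for LSEC-like cells (-0.10) it was -0.072 with doublets kept and -0.16 over complex IV UMIs. For barcodes over 20% against kept cells of the Hep-ADKTg library (0.056), thresholds of 10% and 40% gave 0.24 and 0.0065, a mean over cells 0.20 and the hepatocyte marker filter 0.10. In the Hep-ADKWT library (0.26) the same alternatives gave 0.31, 0.21, 0.23 and 0.29, minima of 1000 and 2000 UMIs 0.26 and 0.27, and complex IV as denominator 0.36. For single genes the numbers were 399, 133 and 7. In all kept cells mt-Nd1 had 0.041 over complex IV UMIs and 0.0068 with the hepatocyte marker filter, and mt-Nd6 had -0.47 in hepatocyte-like cells as a mean over cells. Over 20% against kept, mt-Nd4 had -0.053 in the Hep-ADKTg library at 40%, mt-Nd6 -0.17 there at 10% and -0.096 with the marker filter, and mt-Nd1 0.034 in the Hep-ADKWT library over complex IV UMIs. The causes of these changes were not tested. Over these alternatives the mt-Nd3 ratio, Hep-ADKTg over Hep-ADKWT, stayed between -0.84 and -0.075 and that of mt-Nd4l between 0.19 and 1.47. No paired analysis was possible because each group has 1 library. Depth limits mt-Nd6 and the classes of few cells most.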
